A study of Mus musculus with 2 samples.

Results

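The cells described here were the cycling cells of 2 mouse cultures of myeloid-derived suppressor cells (MDSC) that carried few transcripts of 7 granule genes. They were chosen by their own counts. A cell belonged if it had at least 200 detected genes, under 10% mitochondrial UMIs (unique molecular identifiers, the counted molecules), at least 2000 gene UMIs and at least 5 UMIs of Mki67 and Top2a together. Mpo, Elane, Prtn3 and Ctsg, which encode primary granule proteins, had to stay under 0.5% of its UMIs, and the specific granule genes Camp, Ltf and Ngp under 1%. No more than 1 UMI could come from C1qa, C1qb and C1qc, the complement C1q genes of macrophages. These limits kept 465 of 3710 filtered cells, of which 229 were in the Selinexor library and 236 in the DMSO library.

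Both cultures were grown with recombinant mouse IL-6 and GM-CSF at 40 ng/ml each and were taken on day 4. One received Selinexor at 50 nM, an inhibitor of the nuclear export receptor exportin 1, and the other received DMSO, its vehicle. Per the labels, cells were tagged with feature barcodes, live cells positive for CD11b were sorted, and droplet libraries were made on the 10x Genomics platform after pooling; the starting cells are not named there. Each treatment has 1 library, so how far cultures of a treatment vary is unknown, no test was run, and each difference describes this pair of libraries alone. Intervals in parentheses are 95% intervals of counting error only.

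Proliferating myeloid progenitors pass through S phase, in which DNA and histones are made, and through G2 and mitosis, in which Mki67 and Top2a transcripts are most abundant. Cells on the neutrophil path make primary granule proteins first, as promyelocytes, then specific granule proteins, and stop dividing as they mature. Monocyte precursors also divide, and share Ly6c2, Csf1r and Irf8. S100a8 and S100a9 encode calprotectin, the abundant cytosolic protein pair of neutrophils and monocytes.

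Genes of late cycle phases are commonly controlled through CHR elements and CCAAT boxes close to their start, bound by the DREAM and MuvB complexes and by NF-Y. The 150 bases before the start of the 4 marker genes are printed 5′ to 3′ on the gene's strand, from RefSeq (GRCm38.p6), to show these words where they are, in capitals. The words were TTTGAA for the CHR element, CCAAT for the CCAAT box, and TTTGGCGC, TTTCCCGC, TTTGCCGC and TTTCGCGC for an E2F site, each on either strand.
Mki67, chr7:135716380-135716529, minus strand: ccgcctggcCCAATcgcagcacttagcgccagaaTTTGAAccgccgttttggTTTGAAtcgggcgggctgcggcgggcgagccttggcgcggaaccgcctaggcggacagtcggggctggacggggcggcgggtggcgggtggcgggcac
Top2a, chr11:99024190-99024339, minus strand: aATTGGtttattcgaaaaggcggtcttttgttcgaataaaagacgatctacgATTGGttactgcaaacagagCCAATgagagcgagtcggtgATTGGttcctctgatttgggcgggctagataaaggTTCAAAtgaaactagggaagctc
Anln, chr9:22389207-22389356, minus strand: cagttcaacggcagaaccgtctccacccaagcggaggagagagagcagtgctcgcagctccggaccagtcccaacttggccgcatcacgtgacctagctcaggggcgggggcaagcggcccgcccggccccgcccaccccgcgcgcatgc
Prc1, chr7:80294301-80294450, plus strand: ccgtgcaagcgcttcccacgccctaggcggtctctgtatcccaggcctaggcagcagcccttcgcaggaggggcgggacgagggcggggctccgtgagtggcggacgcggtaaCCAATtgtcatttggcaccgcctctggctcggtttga
The Mki67 window held 2 CHR words and 1 CCAAT word, the Top2a window 1 and 4, the Prc1 window 1 CCAAT word, and the Anln window none of the words searched. In windows of 250 bases, a CHR word was found in 40% of the 45 genes of the G2M list with a sequence (of 52) and in 16.3% of all 27025 genes. A CCAAT word was found in 75.6% of the same list and in 34.5% of all genes, and both words together in 35.6% and 5.73%. For the S phase list 30 of 42 genes had a sequence, too few for the same check, so neither word is shown to be particular to late genes. A match describes letters only, and bears on no difference between the libraries.

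The share of cycling cells under the granule limits depended on the denominator. It was 11.6% (10.3 to 13.1) of 1967 filtered Selinexor cells and 13.5% (11.97 to 15.2) of 1743 filtered DMSO cells. Among cells with at least 2000 UMIs, it was 19.3% (17.1 to 21.7) of 1184 Selinexor cells and 16.5% (14.6 to 18.5) of 1429 DMSO cells. The order of the libraries thus turned round, and 60.2% of the filtered Selinexor cells and 82.0% of the filtered DMSO cells reached 2000 UMIs. Cycling cells over a granule limit numbered 89 in the Selinexor library and 158 in the DMSO library, and cycling cells with 2 or more C1q UMIs numbered 4 and 14.

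Within the chosen cells the depths were close. A Selinexor cell carried a median of 15546 UMIs from 3696 genes and a DMSO cell one of 14936 UMIs from 3448 genes, and the summed gene UMIs were 3599137 and 3527779. Mitochondrial UMIs had medians of 3.14% and 2.65%. Gm42418 and Gm26917, transcripts that overlap ribosomal RNA repeats, took a median of 8.45% of a Selinexor cell's UMIs and 4.98% of a DMSO cell's. Their part in the results was not tested beyond leaving both out. No barcode occurred in both libraries, and each chosen cell had its own library's tag as its most abundant tag.

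Mki67, the proliferation antigen, and Top2a, the topoisomerase that untangles sister DNA, chose the cells and are given as a description. A median cell held 16 of their UMIs in the Selinexor library (quartiles 9 and 26) and 17 in the DMSO library (quartiles 9.75 and 29). Just inside the limit, at 5 UMIs, stood 24 Selinexor and 15 DMSO cells, and just outside, at 4 UMIs, 20 and 11. Cells at 5 UMIs had 4731 CPM (a gene's UMIs scaled to a total of 1000000 UMIs) of the G2M list in the Selinexor library and 8278 in the DMSO library. Cells at 4 UMIs had 4122 and 4169 CPM, and cells at 6 UMIs 5396 and 4477 CPM, so the DMSO value at 5 UMIs stood alone. The highest chosen cell had 0.493% primary granule UMIs in the Selinexor library and 0.499% in the DMSO library, and the nearest cycling cell above the limit had 0.790% and 0.520%.

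Anln, which encodes the contractile ring protein anillin, and Prc1, the midzone microtubule bundler of dividing cells, were not in the rule and marked the same cells. Anln had 260 UMIs in the chosen Selinexor cells and 275 in the chosen DMSO cells, against 8 and 5 UMIs in non-cycling cells (0 UMIs of Mki67 and Top2a, every other limit alike, 372 Selinexor and 563 DMSO cells). Prc1 had 671 and 950 UMIs, against 15 and 16 in non-cycling cells. The label of cycling cells held. The cells were low in the 7 granule genes of the rule but not free of them, and they held other granule transcripts. Ngp had 2451 UMIs in Selinexor cells and 1694 in DMSO cells. Lyz2 (lysozyme) stood at 4432 CPM in the Selinexor library and 2291 in the DMSO library, Mmp8 (a neutrophil collagenase) had 3256 and 2986 UMIs, and Lcn2 (lipocalin 2) 3474 and 4377 UMIs. Itgam, which encodes the CD11b used in the sort and was added after its values were seen, had 313 and 226 CPM.

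The genes with the highest variance over mean among the chosen cells were S100a9 and S100a8, which together took a median of 0.611% of a Selinexor cell's UMIs (quartiles 0.164% and 10.8%) and 4.96% of a DMSO cell's (quartiles 0.728% and 12.8%). The 3 ranges below, set after these values were seen, describe that spread. Under 1% lay 127 Selinexor cells (55.5%, 48.8 to 62.0) and 67 DMSO cells (28.4%, 22.7 to 34.6). Between 1 and 10% lay 42 Selinexor cells (18.3%, 13.5 to 23.97) and 96 DMSO cells (40.7%, 34.4 to 47.2). At 10% or more lay 60 Selinexor cells (26.2%, 20.6 to 32.4) and 73 DMSO cells (30.9%, 25.1 to 37.3). Within a factor of 1.2 of the lower limit lay 5 Selinexor and 12 DMSO cells, and of the upper limit 12 and 21. In these libraries the Selinexor cells were more often at the low end, and the DMSO cells more often in the middle.

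**Figure D1:**
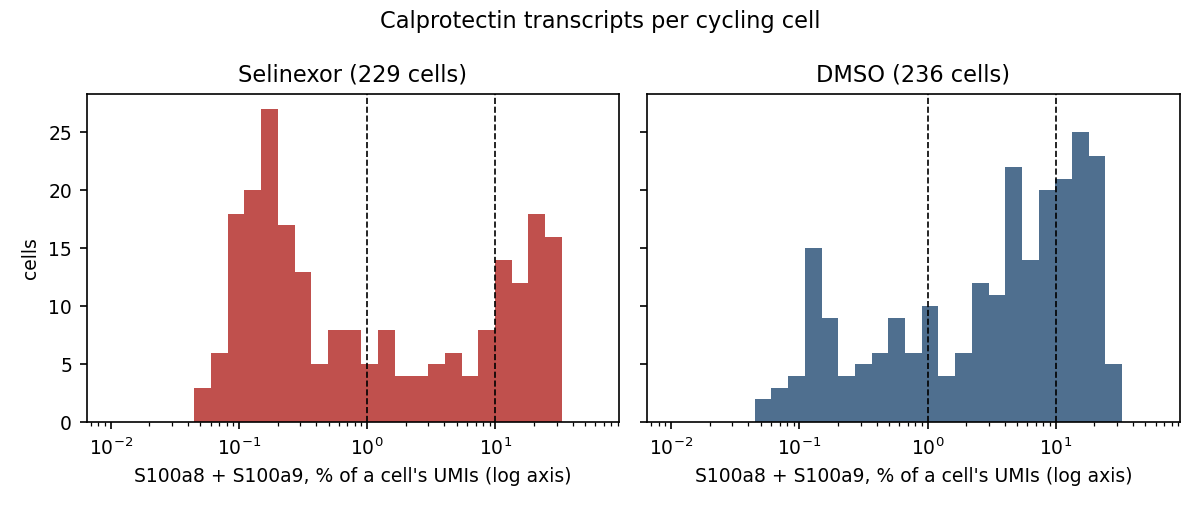
Percent of a cell's gene UMIs from S100a8 and S100a9 (horizontal log axis) and number of cells (vertical axis) in the 229 Selinexor cells (left) and 236 DMSO cells (right); dashed lines mark 1% and 10%. Under 1% lay 127 Selinexor and 67 DMSO cells.

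In the non-cycling cells 54.3% of Selinexor cells and 21.8% of DMSO cells were under 1%, 20.4% and 25.9% were between 1 and 10%, and 25.3% and 52.2% were at 10% or more. Cycling cells over a granule limit were at 10% or more in 96.6% of Selinexor and 94.9% of DMSO cells.

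The ranges carried different lineage genes, in both libraries alike in order. The macrophage list, which holds genes such as Lgals3, Lpl and Mrc1, had a median per cell of 0.884%, 0.578% and 0.267% of UMIs from the low to the high range in the Selinexor library, and 0.864%, 0.499% and 0.286% in the DMSO library. The monocyte list had medians of 0.448%, 0.424% and 0.281% in the Selinexor library, and 0.329%, 0.256% and 0.172% in the DMSO library. The MHC class II list had medians of 0.0394%, 0.0192% and 0.0117% in the Selinexor library, and 0.159%, 0.0320% and 0.0126% in the DMSO library. Across cells, Spearman's rho with the S100a8 and S100a9 share was -0.56 in 229 Selinexor cells and -0.65 in 236 DMSO cells for the macrophage list. For the specific granule list it was 0.60 and 0.40, and for the late neutrophil list without these 2 genes -0.33 and -0.03, all in thinned cells. The specific granule list holds Camp, Ltf and Ngp, which the rule limits. These correlations describe cells of 1 library each, whose shares are parts of the same total.

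S phase and G2M genes were read from 2 lists of cycle genes with Mki67 and Top2a left out, in cells thinned to 2000 UMIs so that depth was equal. The G2M share of cycle UMIs had a median of 76.9% in the Selinexor cells (quartiles 55.9% and 88.1%) and 78.2% in the DMSO cells (quartiles 55.6% and 89.6%). A G2M share over 66.7% was found in 141 Selinexor cells (61.8%, 55.2 to 68.2) and 148 DMSO cells (62.7%, 56.2 to 68.9). A share under 33.3% was found in 16 Selinexor cells (7.02%, 4.06 to 11.1) and 7 DMSO cells (2.97%, 1.2 to 6.02), and without thinning in 7 and 3. The limits are cuts in a range, with 41 Selinexor and 40 DMSO cells within 5 points of one. The distributions overlapped over nearly their whole width, and the intervals of each class met. The rule itself asks for Mki67 and Top2a, genes of late phases, so the phases of all cycling cells cannot be read from these shares.

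**Figure D2:**
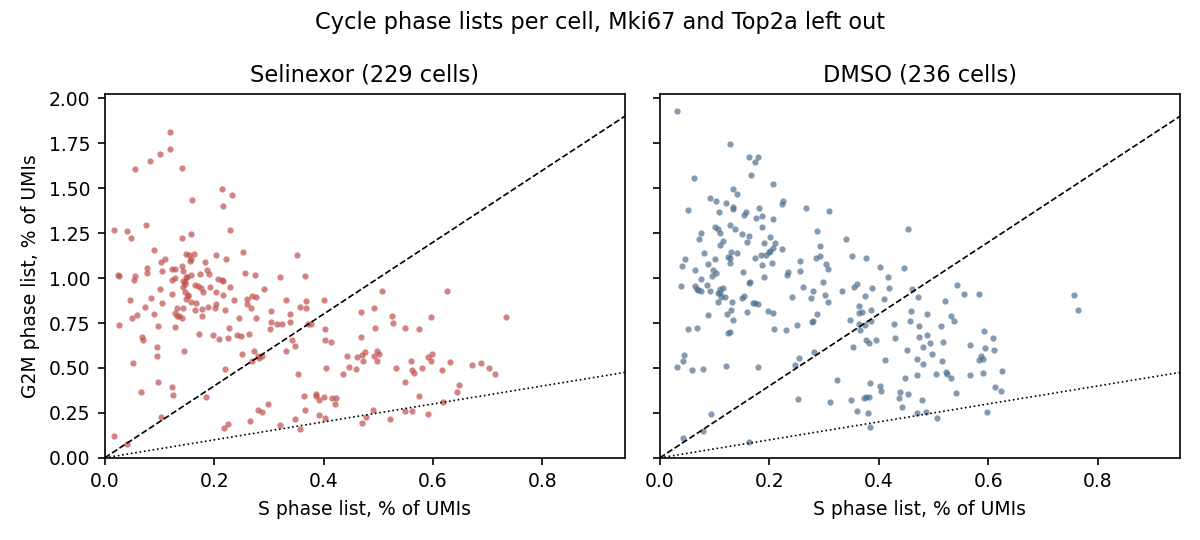
Each point is a cell, with the S phase list (horizontal) and the G2M list (vertical) as percent of its gene UMIs, unthinned, in the 229 Selinexor cells (left) and 236 DMSO cells (right). The dashed line is a G2M share of 66.7% and the dotted line one of 33.3%; most cells of both libraries lie above the dashed line.

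Cyclins outside both lists differed along the G2M share, here unthinned. Ccne1, the E-type cyclin of S phase entry, had 79.6 CPM in 77 Selinexor cells with shares from 33.3% to 66.7% and 7.55 CPM in 144 with higher shares. In DMSO cells it had 107 CPM in 75 cells and 21.5 CPM in 158 cells. Ccnb1, the mitotic cyclin B1, had 45.5 and 161 CPM in Selinexor cells and 46.8 and 190 CPM in DMSO cells. Plk1, the polo-like mitotic kinase, had 30.1 and 97.2 CPM in Selinexor cells and 30.9 and 117 CPM in DMSO cells. In both libraries cyclin E1 was low where the mitotic genes were high. The G2M share also differed by S100a8 and S100a9 range. Its medians from the low to the high range were 70.2%, 75.9% and 86.1% in Selinexor cells and 78.5%, 74.7% and 84.1% in DMSO cells. Cycling cells over a granule limit had medians of 82.3% in Selinexor cells and 85.6% in DMSO cells.

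For the comparison across genes, UMIs were summed over the chosen cells of each library, scaled to CPM, and compared as the log2 ratio of CPM + 1 in Selinexor over DMSO, so that a positive ratio is higher in Selinexor. All log2 values from here on are such ratios, and the addition of 1 understates those of low genes. A gene counted as measured with 50 or more UMIs over the 2 libraries, which 8153 genes had. Of these, 182 (2.23%) stood 2-fold or more above their DMSO level in the Selinexor cells, and 109 (1.34%) stood 2-fold or more below it. At 1.5-fold the counts were 802 higher (9.84%) and 389 lower (4.77%), the background for the lists. The median gene stood at 0.09. Of the genes 2-fold apart, 62.5% were higher with totals as the scale, 50% with TMM factors and 49.1% with median-of-ratios factors, so this split depends on the scale. It was 50% with equal weight to the 3 S100a8 and S100a9 ranges, and 66.9% without Gm42418 and Gm26917.

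Xpo1 (chr11:23256041-23298249, plus strand, GENCODE vM21), which encodes exportin 1, the target of Selinexor, had 710 UMIs in the Selinexor cells and 361 in the DMSO cells. That is 197 CPM against 102 CPM, a log2 ratio of 0.94 (0.76 to 1.13). In non-cycling cells it had 209 CPM in the Selinexor library and 46.9 CPM in the DMSO library, a log2 ratio of 2.13 (1.92 to 2.40). The Selinexor levels of cycling and non-cycling cells were thus close, and the DMSO level was the higher one in cycling cells. Within the S100a8 and S100a9 ranges the ratio in cycling cells was 1.02, 0.87 and 0.77 from low to high. In cycling cells over a granule limit it was 1.11.

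The nuclear transport list had 29 measured genes, of which 4 were 1.5-fold higher, namely Xpo1 itself, Kpna4, Tnpo2 (0.82) and Ipo8 (0.82), and 1 was lower. Its median was 0.37, against 0.09 for all genes. The importin alpha gene Kpna4 had 236 UMIs in Selinexor cells and 113 in DMSO cells (interval of the log2 ratio 0.70 to 1.37). Its relative Kpna2, whose transcript peaks in G2 and mitosis, had 36 and 74 UMIs (-1.0), and Ran, the GTPase that drives the cycle, 2143 and 2790 (-0.41). Of the 29 genes, Xpo1 included, 25 were above 0, against 4917 of all 8153 genes. The list's summed level was 2438 CPM in the Selinexor cells and 2296 CPM in the DMSO cells, and in the range of 10% or more it was 1716 and 1821 CPM.

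Within the cycle genes, the S list was near the background. It had a median of 0.12 (-0.10 in thinned cells), with 2 of 42 genes 1.5-fold higher and 0 lower. They were Cdc6 (0.68), a loader of the replicative helicase, and Mcm2 (0.60), a subunit of it. The G2M list had a median of -0.16, with 0 of 50 higher and 1 lower, Ube2c (1011 UMIs in Selinexor cells and 1582 in DMSO cells, -0.67), a ubiquitin-conjugating enzyme of the anaphase-promoting complex. Of 25 kinetochore, spindle and cytokinesis genes, 0 were 1.5-fold apart, and their median was -0.14. Many of these, such as Kif11, Cenpf and Tpx2, are also in the G2M list, so the lists are not separate results. On this scale 37 of the 50 G2M genes were below 0, Mki67 and Top2a of the rule included, against 3236 of all 8153 genes.

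Among cyclins and their kinases, Ccnd2 and Cdk6 were the ones past 1.5-fold. Ccnd2, the D-type cyclin through which growth factors start a cycle, had 530 UMIs in Selinexor cells and 198 in DMSO cells (1.38, 1.15 to 1.63), and it was higher in all 3 ranges (1.82, 1.62 and 0.92). Cdk6, its partner kinase, had 449 and 208 UMIs (1.07). Ccnd1 had 80 and 65 UMIs (0.26) and Ccnd3 706 and 810 (-0.23), while Cdk4, another partner kinase, had 305 and 365 (-0.28), so the D-type cyclins had no common direction. Ccne1 had 128 and 167 UMIs (-0.40), Ccna2 354 and 461 (-0.41), Ccnb1 423 and 511 (-0.30) and Ccnb2 270 and 385 (-0.53). All 4 were under 1.5-fold. Of 15 genes in the G1 and S list 3 were higher and 0 lower (median 0.26, and -0.05 in thinned cells). Of 17 in the G2 and mitotic list 1 was higher and 0 lower (median -0.27). Cdk1, Aurka, Aurkb, Cdc20 and Cdc25c of the latter are also in the G2M list.

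The brakes of the cycle were mixed. Cdkn2d, which encodes the CDK4 and CDK6 inhibitor p19, had 223 UMIs in Selinexor cells and 458 in DMSO cells (-1.06, -1.30 to -0.83), and Cdkn2c, which encodes p18, 52 and 99 (-0.91). Both were lower in each of the 3 ranges, by -1.02, -0.88 and -0.69 for Cdkn2d and -1.04, -0.86 and -0.92 for Cdkn2c. Btg1, an antiproliferative cofactor, had 2162 and 1142 UMIs (0.89). Cdkn1a, the p21 gene induced by p53, had 811 and 1003 UMIs (-0.33). The p53 list held 2 higher and 1 lower of 17 genes with a median of 0.13 (-0.04 without the cells of highest UMIs), among them Pmaip1 (39 and 17 UMIs, 1.02), a BH3-only death protein, and Sesn2 (46 and 81 UMIs, -0.80), a stress-induced sestrin.

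Replication-dependent histone genes, made in S phase, were the cycle group farthest from the background. All 14 listed genes were measured and lay below 0, 8 of them by 1.5-fold or more, with a median of -0.61. Their summed level was 2052 CPM in Selinexor cells (2005 to 2099) and 3202 CPM in DMSO cells (3143 to 3262). The same order was seen in each S100a8 and S100a9 range, with 1384 and 2191 CPM in the low range, 2661 and 3388 in the middle, and 3300 and 3906 in the high range. It was also seen at G2M shares above 66.7%, with 2046 CPM in Selinexor cells and 3249 CPM in DMSO cells. Outside the chosen cells the order was the same. Cycling cells over a granule limit had 3753 CPM in the Selinexor library and 4454 CPM in the DMSO library. Non-cycling cells had 209 and 273 CPM, with a median of -0.78 over 7 measured genes. Hist2h2ac had 420 and 836 UMIs (-1.02), and Hist1h1e 1286 and 1757 (-0.48). Hist1h2bc had 68 and 212 UMIs (-1.62), but 140 of the 212 DMSO UMIs came from 3 cells. Apart from the linker histone genes Hist1h1a to Hist1h1e, these genes have near-identical copies within their own histone family (H2A, H2B, H3 or H4). Transcripts of the whole group are mostly unpolyadenylated, so counts of single members are uncertain.

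**Figure D3:**
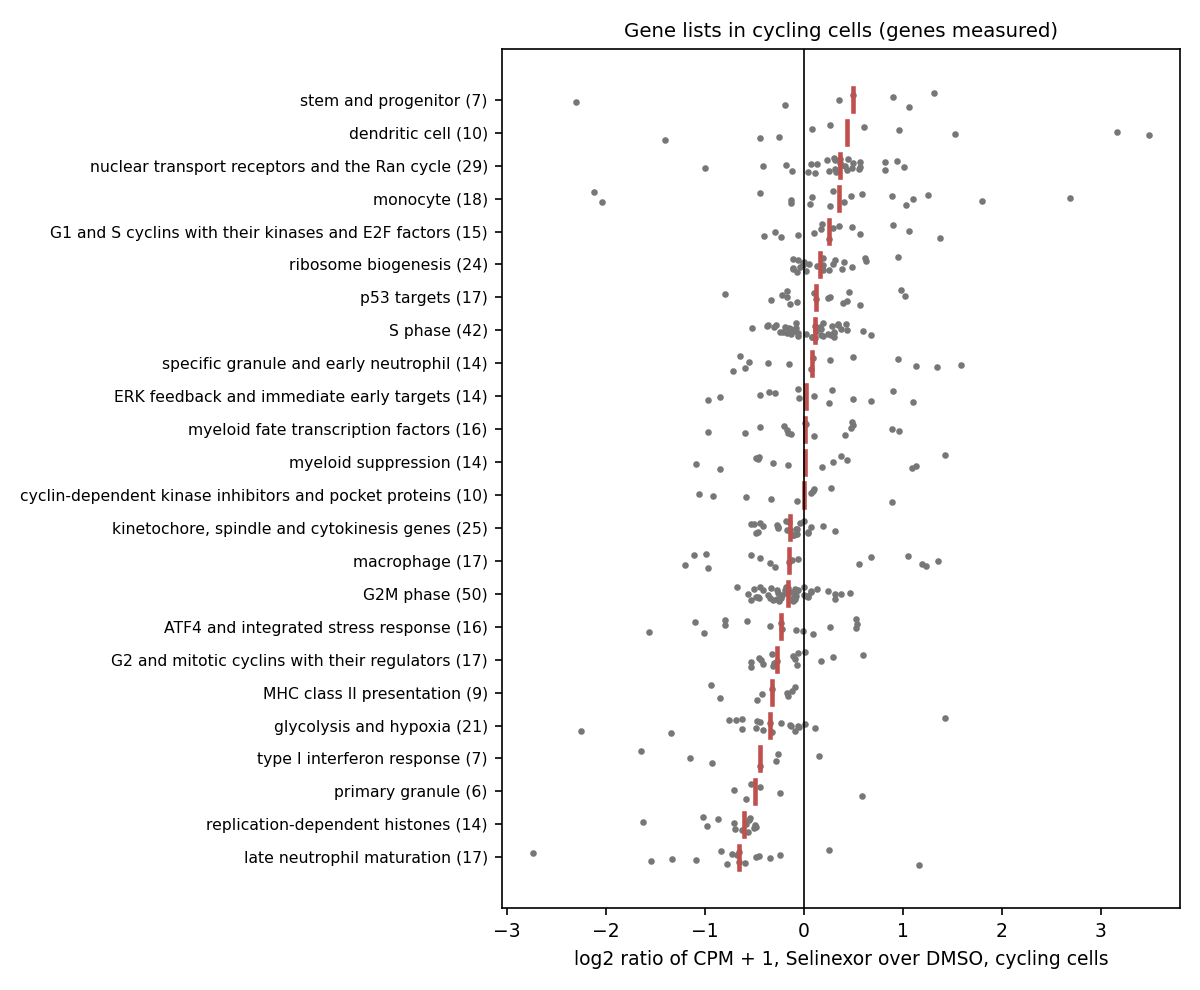
Log2 ratio of CPM + 1, Selinexor over DMSO, in cycling cells (horizontal axis) for each measured gene (grey points) of 24 lists, with the list median (red bar) and the number of measured genes in parentheses. The stem and progenitor list is at the top with a median of 0.50 and the late neutrophil list at the bottom with -0.66.

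Among lineage lists, monocyte genes stood higher in the Selinexor cells. Of the 18 it had measured, 7 passed 1.5-fold upward and 2 downward, with a median of 0.35, and the summed level was 4236 CPM against 2517 CPM in the DMSO cells. Fn1, which encodes the matrix protein fibronectin, had 2519 UMIs in Selinexor cells and 380 in DMSO cells (2.69, 2.54 to 2.86). Ly6c2, the classical monocyte surface marker, had 4851 and 1982 UMIs (1.26), and Ear2, a ribonuclease of the eosinophil-associated family, 137 and 36 (1.80). Irf8, a transcription factor of the monocyte path, had 297 and 155 UMIs (0.89). Ms4a6c (51 and 229 UMIs, -2.12), a membrane-spanning protein of monocytes, went the other way. Cx3cr1, the fractalkine receptor, had 8 and 43 UMIs (-2.03), but 35 of the 43 DMSO UMIs lay in 3 cells. The summed monocyte level was higher in Selinexor in each range, at 4678 and 3105 CPM, 4414 and 2616 CPM, and 2881 and 1797 CPM from low to high. With equal weight to the 3 ranges, the list's median gene was at 0.00, so the summed level and the median gene differ in what they show.

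Late neutrophil genes stood lower. Of 17 measured genes 1 was higher and 11 lower, with a median of -0.66. S100a8 had 26713 CPM in Selinexor cells and 37229 CPM in DMSO cells (-0.48), and S100a9 25346 and 34663 CPM (-0.45). In the median cell S100a8 was at 5105 CPM in the Selinexor library and 27579 CPM in the DMSO library, and S100a9 at 1148 and 20201 CPM. Stfa2l1, a stefin, had 501 and 3283 UMIs (-2.73), and Cxcr2, the neutrophil receptor for CXC chemokines, 31 and 95 (-1.54). Ccl6, a CC chemokine, had 10893 and 4751 UMIs (1.17). Within ranges no summed level of the list is given, since S100a8 and S100a9, which set the ranges, hold most of its UMIs. The part of free RNA in these levels was not tested.

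Granule genes of the earlier neutrophil stages split. In the primary granule list 1 of 6 was higher and 2 lower (median -0.49), with 3 of the 6 (Elane, Prtn3 and Ctsg) limited by the rule. Ms4a3, a marker of granulocyte and monocyte progenitors, had 369 UMIs in Selinexor cells and 494 in DMSO cells (-0.45). In the specific granule list 4 of 14 were higher and 3 lower (median 0.08, and -0.01 with TMM factors). Of these 14, Camp, Ltf and Ngp were limited by the rule. Chil3, a chitinase-like protein also called Ym1, had 12078 and 4661 UMIs (1.34, 1.30 to 1.39), and was higher in all 3 ranges (1.14, 2.37 and 1.70). Fcnb, a ficolin, had 222 and 70 UMIs (1.59), and Lyz2 15952 and 8081 (0.95). Cybb, the catalytic subunit of the phagocyte NADPH oxidase, had 3891 and 1734 UMIs (1.14). Pglyrp1, a peptidoglycan-binding granule protein, had 236 and 364 (-0.65), and Camp, which encodes cathelicidin and was limited by the rule, 173 and 280 (-0.71).

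The macrophage list held genes at both ends. Of 17 measured genes 5 were higher and 4 lower, with a median of -0.14. The lysosomal membrane gene Cd63 had 1101 UMIs in Selinexor cells and 455 in DMSO cells (1.24), and Gpnmb, another membrane glycoprotein of the lysosome, 144 and 53 (1.36). Cd68, the scavenger receptor family member of late endosomes, had 257 and 582 UMIs (-1.20). Lgals3 (galectin 3) had 7006 and 7467 (-0.12), and Lpl (lipoprotein lipase) 3031 and 3092 (-0.06). With equal weight to the 3 ranges the list's median was -0.46.

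MHC class II genes, which present antigen to CD4 T cells, were all 9 below 0 in the cycling cells, with 0 higher and 2 lower at 1.5-fold and a median of -0.32. Their summed level was 1401 CPM in the Selinexor cells and 1801 CPM in the DMSO cells. Cd74, the invariant chain, had 2481 and 3374 UMIs (-0.47), and H2-Ab1 680 and 893 (-0.42). A few cells held most of it. A mere 9 Selinexor cells (3.93%) and 9 DMSO cells (3.81%) had 1% or more of their UMIs from the list, and these held 66.0% and 54.1% of the list's UMIs. The summed level was lower in Selinexor in each S100a8 and S100a9 range, at 2234 and 5296 CPM, 317 and 541 CPM, and 140 and 285 CPM from low to high, and with equal weight to the ranges the list's median was -1.04. In non-cycling cells the same list had a median of 0.53, with 3258 CPM in the Selinexor library and 2175 CPM in the DMSO library. The difference between those 2 medians was not tested.

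Dendritic cell genes were few. Of 18 genes 10 were measured, 5 higher and 1 lower (median 0.44, and -0.04 with equal weight to the 3 ranges). Ccl22, a chemokine of mature dendritic cells, had 117 UMIs in Selinexor cells and 7 in DMSO cells (3.49), but 107 of the 117 lay in 3 cells. With at least 10 cycling UMIs asked for, its log2 ratio was 1.07. Fscn1, the actin bundler of the same cells, had 56 and 3 UMIs, 55 of the 56 in 3 cells. Batf3, a transcription factor of conventional dendritic cells, had 24 and 68 UMIs (-1.40). Clec9a and Flt3 were at 0 in both libraries.

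Of the 7 measured progenitor genes 5 were above 0, against 4917 of all 8153 genes, and fate factors gave no common direction. Of 7 measured genes of the stem and progenitor list 3 were higher and 1 lower (median 0.50); Cd34 had 7 and 3 UMIs, Kit 13 and 4, and Mecom 0 and 0, too few to be measured. Sox4, a transcription factor of progenitors, had 46 UMIs in Selinexor cells and 16 in DMSO cells (1.32). Cdk6 (1.07) and Myc (0.90), the others that were higher, are also in the G1 and S list of cycle genes. Ly6a, the stem cell antigen Sca-1, had 37 and 193 UMIs (-2.30), with -3.13, -2.83 and 0.29 in the 3 ranges, so its direction turned in the highest. Spi1, which encodes PU.1, had 1519 and 1479 UMIs (0.01), and Cebpb, the factor of emergency granulopoiesis, 2811 and 3010 (-0.13). Egr1, an immediate early factor, had 87 and 170 UMIs (-0.97). Of 16 measured fate factors 2 were higher and 2 lower (median 0.02, and -0.07 with TMM factors).

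Among metabolic and stress lists, those of glycolysis and hypoxia, ATF4 and interferon genes had medians below 0. In the glycolysis and hypoxia list 1 of 21 genes was higher and 6 lower (median -0.34), with 5561 CPM in Selinexor cells and 7683 CPM in DMSO cells, and the sum was lower in Selinexor in each range. Egln3, a prolyl hydroxylase that marks hypoxia-inducible factor for decay, had 64 and 312 UMIs (-2.25, -2.73 to -1.92), and Bnip3, a mitophagy receptor, 128 and 323 (-1.34). Gapdh had 5833 and 8820 (-0.63). In the ATF4 list 0 of 16 were higher and 5 lower (median -0.23), with Atf3 at 31 and 97 UMIs (-1.57) and the cystine carrier Slc7a11 at 131 and 279 (-1.10). Of the same list, Shmt2 (171 and 114 UMIs, 0.54) and Phgdh (556 and 376 UMIs, 0.53), enzymes of serine and glycine metabolism, were higher by less than 1.5-fold. In the interferon list 0 of 7 were higher and 3 lower (median -0.44), all at low counts, such as Zbp1, a nucleic acid sensor, at 24 and 81 UMIs (-1.64). Ribosome biogenesis had 3 of 24 higher and 0 lower (median 0.16). ERK feedback genes had 3 of 14 higher and 2 lower (median 0.03, and -0.06 with TMM factors). Myeloid suppression genes had 3 of 14 higher and 2 lower (median 0.01, and -0.07 with TMM factors), the higher ones being Vegfa (39 and 12 UMIs, 1.43), Cybb and Cd274, which encodes PD-L1 (126 and 56 UMIs, 1.09). The lower ones were Arg2 (65 and 117 UMIs, -0.84) and Il1b (112 and 237 UMIs, -1.09).

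Among the genes farthest apart, those at the low end included the stefins, inhibitors of cathepsins whose genes lie close together on chromosome 16 and are near-identical, so their single counts are uncertain. Cstdc5 had 469 UMIs in Selinexor cells and 9057 in DMSO cells (-4.29), Stfa2 119 and 1389 (-3.53), Cstdc4 1973 and 17495 (-3.18), Stfa1 400 and 3428 (-3.12) and Csta2 603 and 3926 (-2.72). All were lower in each S100a8 and S100a9 range, Cstdc5 least in the low range, at -0.41. Ifitm3, an antiviral membrane protein, had 971 and 3637 UMIs (-1.93), and its neighbour Ifitm1 3892 and 14028 (-1.88), with the same caution on copies. Dmkn, the secreted protein dermokine, had 66 and 342 UMIs (-2.34), and Slfn1, a schlafen of haematopoietic cells, 43 and 211 (-2.23).

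At the high end, Ighm, the heavy chain of IgM, had 363 UMIs in Selinexor cells and 32 in DMSO cells (3.34, 2.95 to 4.04). No cell held more than 11 of them. Ms4a1, Pax5 and Jchain, markers of B and plasma cells, were at 0 in both libraries, and Cd79a had 1 and 1 UMI. Tcaf1, a regulator of TRP channels, had 194 and 17 UMIs (3.24), Serpinb6a, a cytosolic protease inhibitor, 127 and 18 (2.57), and Fam122b 157 and 27 (2.37). Arrdc3, an arrestin-like adaptor, had 102 and 21 UMIs (2.08), Tgm2, a protein crosslinking transglutaminase, 181 and 41 (2.02), and Klhl24, an adaptor of cullin ubiquitin ligases, 117 and 30 (1.82). Zbed3 had 112 and 29 UMIs (1.80) and Pmp22, a membrane protein known from myelin, 126 and 34 (1.76). Each of these was higher in Selinexor in all 3 ranges.

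**Figure D4:**
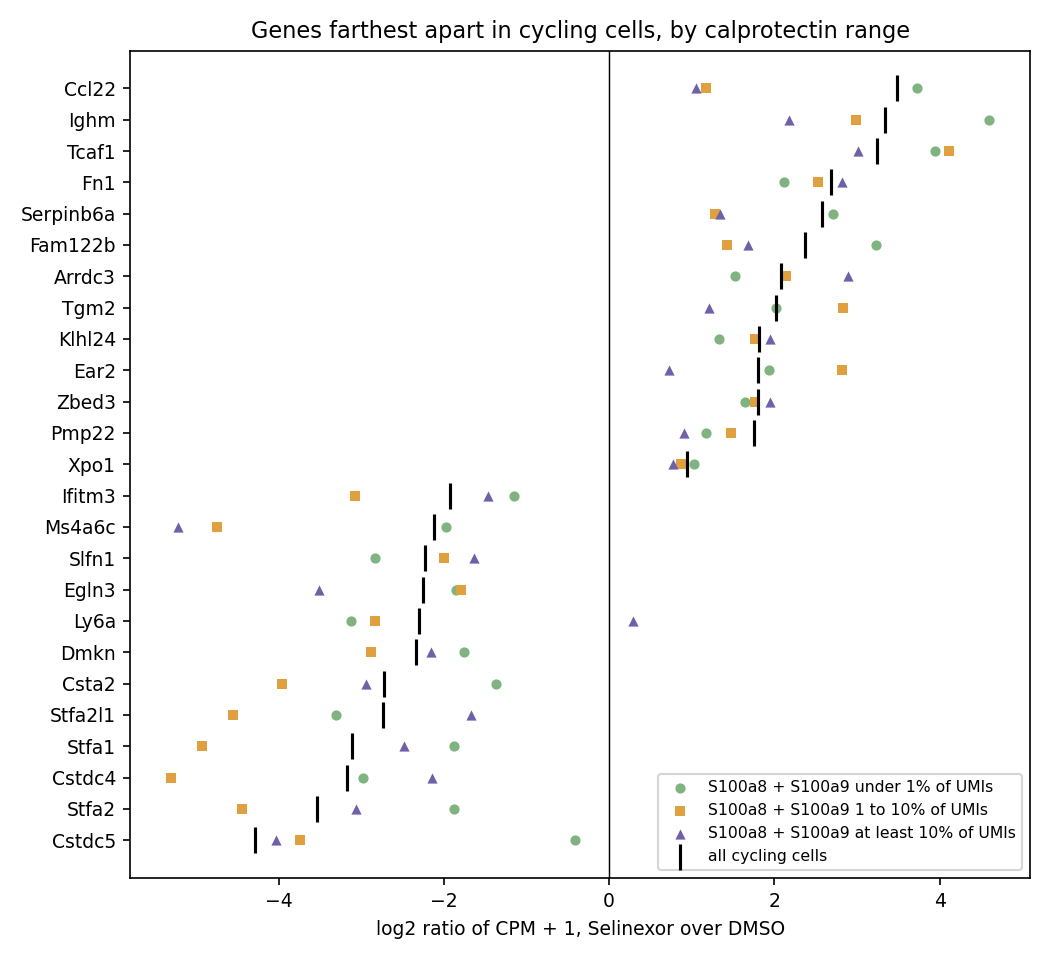
Log2 ratio of CPM + 1, Selinexor over DMSO (horizontal axis), for Xpo1 and the 24 genes farthest apart in cycling cells (vertical axis). The 24 were taken from genes with at least 100 UMIs and 20 CPM in 1 library. Their ratios also had to keep their sign with every cell weighted equally. Vertical ticks are all chosen cells, and coloured symbols are the 3 ranges of S100a8 and S100a9 share; only Ly6a has a range, the highest, on the other side of 0.

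Ratios in cycling cells were set beside those in non-cycling cells of the same libraries, which share culture and processing. Of 7512 genes measured in both classes, 51 had a ratio at least 2-fold higher in cycling cells (0.679%) and 135 one at least 2-fold lower (1.8%). At least 2-fold higher in Selinexor were 164 of these genes in cycling cells and 353 in non-cycling cells, and at least 2-fold lower 96 and 123. No gene was 2-fold apart in opposite directions. Several list medians had the same sign in both classes. Cycling cells first, monocyte genes had 0.35 and 0.43, and nuclear transport genes 0.37 and 0.45. Late neutrophil genes had -0.66 and -0.62, glycolysis and hypoxia genes -0.34 and -0.57, and interferon genes -0.44 and -0.50. Among those that differed in sign, beside MHC class II, were ATF4 genes (-0.23 and 0.26) and macrophage genes (-0.14 and 0.17). Non-cycling cells were shallower, with a median of 7388 UMIs in the Selinexor library and 7049 in the DMSO library. Their make-up differed too. S100a8 and S100a9 took 10% or more of UMIs in 25.3% of Selinexor and 52.2% of DMSO non-cycling cells, against 26.2% and 30.9% of cycling cells. At 1 to 10% the cycling cells were farther apart, at 18.3% and 40.7% against 20.4% and 25.9%. The part of depth and make-up in these counts and medians and in the differences below was not tested.

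The genes whose ratio was higher in cycling than in non-cycling cells by the widest margin were Gal, Mgst2, Ms4a3, Chil3, Tgm2 and Ptp4a3. Gal, which encodes the neuropeptide galanin, stood at -0.38 in cycling cells and -2.21 in non-cycling cells, Mgst2, a microsomal glutathione transferase, at 0.57 and -1.25, and Ms4a3 at -0.45 and -2.09. Chil3 stood at 1.34 and -0.13: it had 3356 CPM in Selinexor and 1321 CPM in DMSO cycling cells, against 1287 and 1412 CPM in the non-cycling cells. Tgm2 stood at 2.02 and 0.58, and Ptp4a3, a phosphatase, at 0.72 and -0.65.

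Genes with a lower ratio in cycling cells included a regulator of antigen presentation. Ciita, the master activator of MHC class II genes, stood at -0.85 in cycling cells (37 UMIs in Selinexor and 68 in DMSO) and at 1.18 in non-cycling cells (90 and 55 UMIs). Fam122b stood at 2.37 and 4.21, Cbfa2t3, a transcriptional corepressor, at 0.15 and 2.00, Net1, an activator of RhoA, at 0.16 and 1.83, Gpr160, an orphan receptor, at 0.70 and 2.38, and Stfa2 at -3.53 and -1.81. Xpo1 stood at 0.94 and 2.13.

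**Figure D5:**
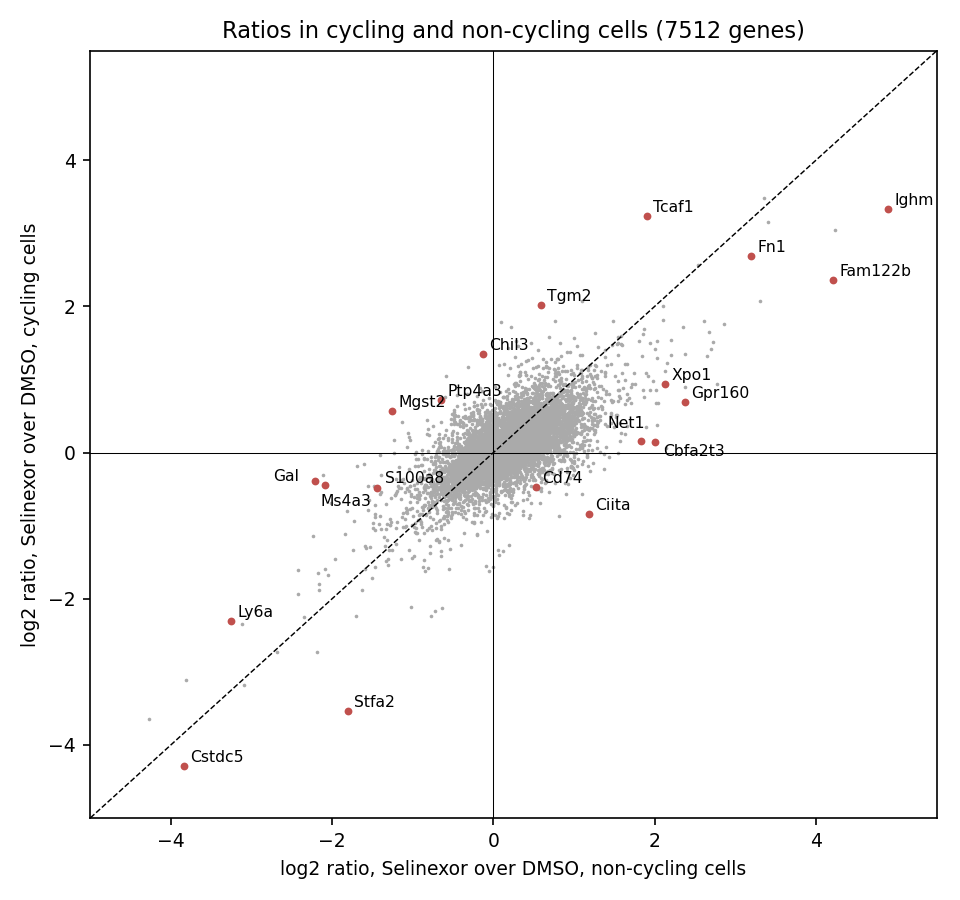
Log2 ratio of CPM + 1, Selinexor over DMSO, in non-cycling cells (horizontal axis) and in cycling cells (vertical axis) for 7512 genes; the dashed line marks equal ratios and red points are named genes. Xpo1, at 0.94 in cycling and 2.13 in non-cycling cells, lies below the line and Chil3, at 1.34 and -0.13, above it.

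Several defining markers of other cell types were at or near 0, but not every gene of their lists was. Of 12 B and plasma cell genes 1 was measured (Ighm), of 11 T cell genes 1 (Il7r, 63 UMIs in Selinexor cells and 98 in DMSO cells), of 8 eosinophil genes 0, and of 12 erythroid genes 3, which other cells also express. The T cell list summed to 18.6 CPM in Selinexor cells and 28.3 CPM in DMSO cells, and the eosinophil list to 3.06 and 2.55 CPM. The B cell list summed to 106 and 11.6 CPM, nearly all of it Ighm, and the erythroid list to 162 and 272 CPM, from Blvrb, Tfrc and Car2. Haemoglobin genes, Cd3e, Trac and Epx were at 0 in both libraries.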

How the data were processed

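The authors deposited, for each of 2 libraries, a matrix of raw UMI counts per gene and cell barcode, made with Cell Ranger 6.1.2 on build mm10, per the submitters' processing notes. The annotation release and barcode filter are not stated there. The tables list 32285 genes and 12 tags, and tag counts were kept out of gene totals.

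Counts of the chosen cells were summed per library and compared as log2 ratios of CPM + 1, and a gene was measured with 50 UMIs or more in the 2 libraries summed. Ratios have exact conditional binomial intervals, sums exact Poisson intervals and shares Clopper-Pearson intervals (95%), all for counting error, since amplified molecules and cells of 1 culture are not independent. Their depth, 3599137 UMIs in Selinexor and 3527779 in DMSO cells, sets that precision. No doublet caller was run; leaving out cells above the 90th percentile of UMIs was an alternative. Phase shares used cells thinned to 2000 UMIs.

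The cells, the 33 gene lists and the ranges were chosen with earlier results of these data known. Named genes were Xpo1 and the 4 markers, the 12 highest and 12 lowest ratios with at least 100 UMIs and 20 CPM in 1 library, and the 6 highest and 6 lowest differences from non-cycling cells. The 12 highest and 12 lowest were taken only from genes whose ratio kept its sign with every cell weighted equally. From each list up to 2 genes per end were added, as were cyclins, genes of highest level and the 12 most variable genes. Other genes named singly, such as Itgam, Gapdh, Plk1, Mmp8 and the undetected markers, were chosen after their values were seen. Coordinates come from GENCODE vM21 by Ensembl identifier. The thinning, ratio and interval steps were tested on simulated data. Tools were Python 3.11.15, numpy 2.4.6, scipy 1.17.1, and, for scaling factors only, edgeR 4.0.16 (TMM) and DESeq2 1.42.0.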

Additional observations from a re-analysis of the deposited data

Results flagged for a closer look

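Tags CMO303 and CMO304, which were the most abundant tag of no chosen cell, gave counts in these cells, which is data outside the gene measurement. In the Selinexor library the cells held 8031 UMIs of tag CMO303 and 6882 of CMO304, which is 1.86% and 1.59% of their tag UMIs, against 94.6% from CMO306. In the DMSO library the cells held 7520 UMIs of CMO303 and 5826 of CMO304, which is 2.18% and 1.69%, against 93.3% from CMO305. The other library's own tag was at a like level, with 8629 UMIs of CMO305 (2.00%) in the Selinexor library and 9719 of CMO306 (2.81%) in the DMSO library. The second most abundant tag had a median of 2.21% per cell and a highest value of 18.0% in the Selinexor library, and 3.07% and 18.7% in the DMSO library.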

How the results depend on the processing

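No paired analysis was possible because each group held 1 library. The main limits are the single library per treatment, the choice of cells by their own transcripts, and the low counts of many genes. Medians of the S phase, G1 and S cyclin, kinase inhibitor, p53, ERK, specific granule, dendritic cell, fate factor, suppression and erythroid lists changed sign under at least 1 alternative, all but the erythroid one by less than the counting interval of a typical gene of the list. The share of chosen cells among filtered cells was 11.6% (Selinexor) and 13.5% (DMSO). It was 14.6% and 15.6% with 3 cycling UMIs asked for, 8.13% and 10.2% with 10, and 10.2% in Selinexor with cycling UMIs at 0.05% or more. With 1000 genes and under 5% mitochondrial UMIs asked for it was 20.5% and 16.9%, so the order of the libraries turned. That setting kept 226 Selinexor and 234 DMSO chosen cells, and it also narrowed the filtered cells by which they were divided. The 182 higher and 109 lower genes became 327 and 175 at a floor of 20 UMIs, 48 and 51 at 200, 556 and 312 with no floor, and 715 and 524 after thinning, where counts are low by construction. The median S phase share, 23.1% in Selinexor and 21.8% in DMSO cells, was 26.1% and 23.3% with 3 cycling UMIs, 25% and 23.7% without the cells of highest UMIs, and in Selinexor cells 18.2% with 10 cycling UMIs and 26.1% with granule limits of 0.25% and 0.5%. Its order between the libraries turned with 10 cycling UMIs, where DMSO cells had 21.1%, and with equal weight to the S100a8 and S100a9 ranges, where the values were 22.4% and 22.7%. With that equal weight, added after the data were seen like the setting without Gm42418 and Gm26917, list medians moved to -1.04 for MHC class II, -0.12 for primary granule, 0.27 for specific granule, 0.00 for monocyte and -0.46 for macrophage genes. MHC class II stood at -0.52 with cycling UMIs at 0.05% or more and at -0.11 without the cells of highest UMIs, primary granule genes at -0.18 with the stricter granule limits, and erythroid genes, 3 in all, at 0.35 after thinning. The other 303 recomputed list medians moved by less than that interval. The ratios of the 24 genes farthest apart and Xpo1 kept their sign in 300 of 300 recomputations. For the 24 genes the sign with every cell weighted equally was a condition of their choice, so that setting could not turn it. In size, 49 of the 300 were counted as moved and 251 as the same, and Ccl22 ranged down to 0.32. The causes of these moves were not tested.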
